A study of Homo sapiens with 8 samples.

Results

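The 9 genes NQO1, GCLC, GCLM, TXNRD1, SRXN1, GSR, PGD, TKT and TALDO1 were followed through an overexpression experiment in Panc 10.05, a human cell line established from a ductal adenocarcinoma of the pancreas. They were chosen by name, as targets of the transcription factor NRF2 and as enzymes of the pentose phosphate pathway, with earlier results of these data known. They were found as 9 of the 58870 gene rows of the table. All 9 passed the filter on low counts that left 13860 genes to test. The comparison was between 4 RNA sequencing libraries of Panc 10.05 control cells and 4 of Panc 10.05 cells labelled as ELAPOR1 overexpression. The study's title concerns ELAPOR1, the classical or progenitor tumour subtype and metabolism. What the control cells received, how ELAPOR1 was overexpressed and under which promoter, and whether the cells were a pool or a clone are not given in the sources used here. Whether the 4 libraries of a group came from separate cultures is not given either, so the p-values measure the spread between these libraries, which may be technical.

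NRF2, encoded by NFE2L2, is a transcription factor that KEAP1 and the CUL3 ubiquitin ligase keep at a low level, and that accumulates when oxidants or electrophiles modify KEAP1. With small MAF proteins it binds antioxidant response elements before genes that make glutathione, regenerate thioredoxin and detoxify quinones. The reductases among these targets spend NADPH, which the oxidative branch of the pentose phosphate pathway supplies. NRF2 activity and pentose phosphate flux have both been studied in pancreatic cancer as supports of redox balance and nucleotide synthesis.

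Depth was 16558600 to 18128757 counts in the control libraries and 13765509 to 17258166 in the ELAPOR1 libraries. ELAPOR1, listed under its older symbol KIAA1324, had 1 to 4 counts in the control libraries and 5910 to 7368 in the ELAPOR1 libraries, so every library matched its label. All 8 ductal epithelial markers examined, keratins and EPCAM among them, were detected, with a summed level of 12073 to 13341 CPM, the count scaled to a library total of 1000000, in control and 11322 to 11659 CPM in ELAPOR1 libraries. Most of that sum was KRT8 and KRT18, and single markers moved in opposite directions. KRT8, KRT18 and MUC1 were lower in every ELAPOR1 library than in any control library. KRT7, KRT19, CDH1 and SOX9 were higher in every ELAPOR1 library, and EPCAM overlapped. The 6 fibroblast markers summed to 2.83 to 4.27 CPM in control and 2.71 to 3.19 CPM in ELAPOR1 libraries, with COL1A2, LUM, DCN and THY1 at 0 in every library. The 6 immune markers summed to 82.0 to 88.5 CPM and 73.3 to 79.2 CPM, nearly all of it CD68, and CD3E was at 0 in every library. The 4 endothelial markers summed to at most 2.13 CPM in any library.

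Stretches of DNA before the starts of GCLM and TXNRD1 are shown because GCLM had the largest rise and TXNRD1 the largest fall of the 9 genes, and each carries the letters of an antioxidant response element core there. The sequences are from RefSeq on GRCh38.p14, written 5′ to 3′ on the strand of the gene, with matches to TGACNNNGC on either strand in capitals.
GCLM, chr1:93909456-93909680, minus strand: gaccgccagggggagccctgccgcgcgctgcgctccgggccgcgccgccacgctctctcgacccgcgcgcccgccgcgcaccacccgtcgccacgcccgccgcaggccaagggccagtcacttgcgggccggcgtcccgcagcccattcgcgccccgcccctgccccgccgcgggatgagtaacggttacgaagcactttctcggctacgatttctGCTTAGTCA
TXNRD1, chr12:104215529-104215778, plus strand: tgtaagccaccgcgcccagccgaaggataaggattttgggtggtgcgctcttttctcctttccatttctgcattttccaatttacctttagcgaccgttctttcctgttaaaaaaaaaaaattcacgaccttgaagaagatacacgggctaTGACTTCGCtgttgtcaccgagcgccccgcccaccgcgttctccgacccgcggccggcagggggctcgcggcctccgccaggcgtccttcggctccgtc
The GCLM match, GCTTAGTCA, lies 34 to 26 bases before the RefSeq start and reads TGACTAAGC on the opposite strand. The TXNRD1 match, TGACTTCGC, lies on the strand of the gene 99 to 91 bases before the first of its 2 RefSeq starts. A match reading TGACAAAGC lies on the opposite strand 102 to 94 bases before the other TXNRD1 start. RefSeq windows were examined for 8 of the 9 genes, and none was examined for GSR. Over the 250 bases before a start, 4 of their 9 windows held the core, in GCLM, TXNRD1 and PGD. Among the 35116 windows searched, which may not include every RefSeq start, 10.9% held it. The PGD match, TGACATTGC on the opposite strand, lies 201 to 193 bases before a RefSeq start at 10399064. That stretch is inside the gene as annotated in GENCODE 29, which begins at 10398592. Of the 3 genes with a match, GCLM rose, and TXNRD1 and PGD fell. Whether the core bears on these changes was not tested.

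Of the 9 genes, 6 differed between the groups at an adjusted p-value under 0.05 (edgeR quasi-likelihood test over all 13860 genes), 2 of them higher and 4 lower in ELAPOR1 libraries. In this experiment 44.7% of all tested genes were called, 22.6% higher and 22.1% lower, so a call alone sets no gene apart. The levels of the groups did not overlap for 5 of the 9 genes, against 39.2% of all tested genes. The median log2 fold change of the 9 genes was -0.08, beside 0.00087 for all tested genes, and the median size of their changes was 0.16, beside 0.18. All 6 changes were smaller than 1.5-fold, and none passed a test against a 1.5-fold change. In bulk libraries, fewer cells that express a gene and less RNA per cell cannot be told apart.

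**Figure D1:**
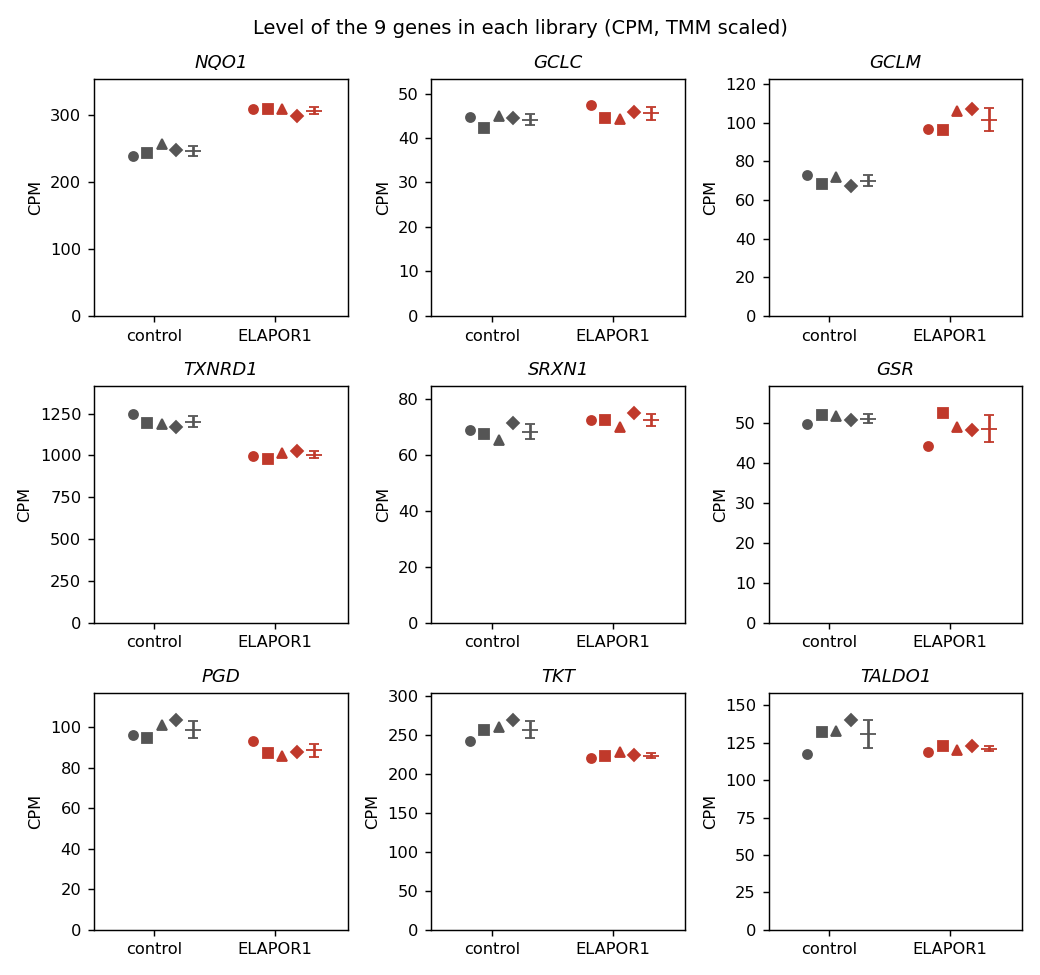
Level of each of the 9 genes in CPM, on axes that start at 0, with 1 symbol per library (the symbol shape is the replicate number) and the mean with its SD (n = 4) to the right of each group. NQO1 and GCLM lie higher, and TXNRD1, PGD and TKT lower, in all 4 ELAPOR1 libraries than in any control library, while the groups overlap for GCLC, SRXN1, GSR and TALDO1.

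Glutamate-cysteine ligase, which makes the first bond of glutathione, is built from the catalytic subunit GCLC and the modifier subunit GCLM. GCLM rose, while GCLC did not pass the test. GCLM (ENSG00000023909.10, chromosome 1, 93885205 to 93909456 in GRCh38, minus strand) stood at 73.1, 68.0, 71.6 and 67.3 CPM in control libraries and at 96.6, 96.0, 106.0 and 107.2 CPM in ELAPOR1 libraries. Every ELAPOR1 library lay above every control library. GCLM rose 1.45-fold, from 70.005 ± 2.81 to 101.5 ± 5.97 CPM (SD, n = 4 per group), with a log2 fold change of 0.53 (standard error 0.044, adjusted p = 5.6e-12 by edgeR).

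GCLC (ENSG00000001084.12, chromosome 6, 53497341 to 53616970, minus strand) stood at 44.7, 42.2, 45.01 and 44.6 CPM in control and at 47.3, 44.6, 44.3 and 45.9 CPM in ELAPOR1 libraries, and the groups overlapped. Its log2 fold change was 0.046 (standard error 0.051, 95% interval -0.057 to 0.15, adjusted p = 0.49 by edgeR), and 0.025 without control replicate 2 or 0.027 without ELAPOR1 replicate 1. The log2 ratio of GCLM to GCLC counts within a library, which does not depend on scaling between libraries, was 0.71, 0.69, 0.67 and 0.59 in control and 1.03, 1.11, 1.26 and 1.22 in ELAPOR1 libraries. There were thus 1.59 GCLM counts per GCLC count in control and 2.23 in ELAPOR1 libraries, a difference of 0.49 on the log2 scale (p = 0.0286 in a two-sided exact permutation test, the lowest value that 4 libraries against 4 allow, and 0.0381 adjusted over the 4 ratios examined).

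NQO1, a quinone reductase that serves as a standard readout of NRF2, was the other gene that rose. NQO1 (ENSG00000181019.13, chromosome 16, 69706996 to 69726951, minus strand) stood at 237.8, 242.7, 256.6 and 247.1 CPM in control and at 308.9, 309.1, 309.3 and 297.9 CPM in ELAPOR1 libraries. The groups were separated by a wide gap, and the ELAPOR1 libraries lay close together. NQO1 rose 1.24-fold, from 246 ± 7.99 to 306 ± 5.59 CPM (SD, n = 4 per group), with a log2 fold change of 0.32 (standard error 0.031, adjusted p = 2.1e-10 by edgeR).

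Most of the genes around NQO1 were higher too, but not the nearest on either side. Of the 20 nearest tested genes averaging 5 CPM or more, 10 on each side of NQO1 and spread over 1.27 Mb, 13 rose and 3 fell, and their median log2 fold change was 0.26, beside 0.32 for NQO1 itself. The nearest on one side, AC012321.1 at 23.9 kb, fell by 0.18 (adjusted p = 0.0076 by edgeR), and the nearest on the other, NOB1 at 28.0 kb, did not pass the test (0.045, adjusted p = 0.42). WWP2, a ubiquitin ligase gene 35.4 kb away, rose by 0.25, and the more distant NIP7, a ribosome biogenesis factor, by 0.53. GCLM lay among rising genes as well. Within 650 kb of its start 6 of 8 such genes rose and 0 fell, with a median of 0.20, and within 650 kb of NQO1 14 of 21 rose and 2 fell, with a median of 0.27. Over the 20 nearest genes of GCLM, which spread over 3.85 Mb, 9 rose and 5 fell, with a median of -0.016. The part of these shifts in the values of NQO1 and GCLM was not tested. Not every gene moved with its surroundings. Within 650 kb of SRXN1, which was not called itself, the median was -0.18, and 7 of 11 genes fell and 2 rose. The medians were small around PGD (0.042) and TKT (0.010), which both fell, and around GCLC (0.0069) and GSR (-0.043), which were not called. Around TXNRD1 the median was -0.12 and around TALDO1 -0.13, each of the gene's own sign.

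**Figure D2:**
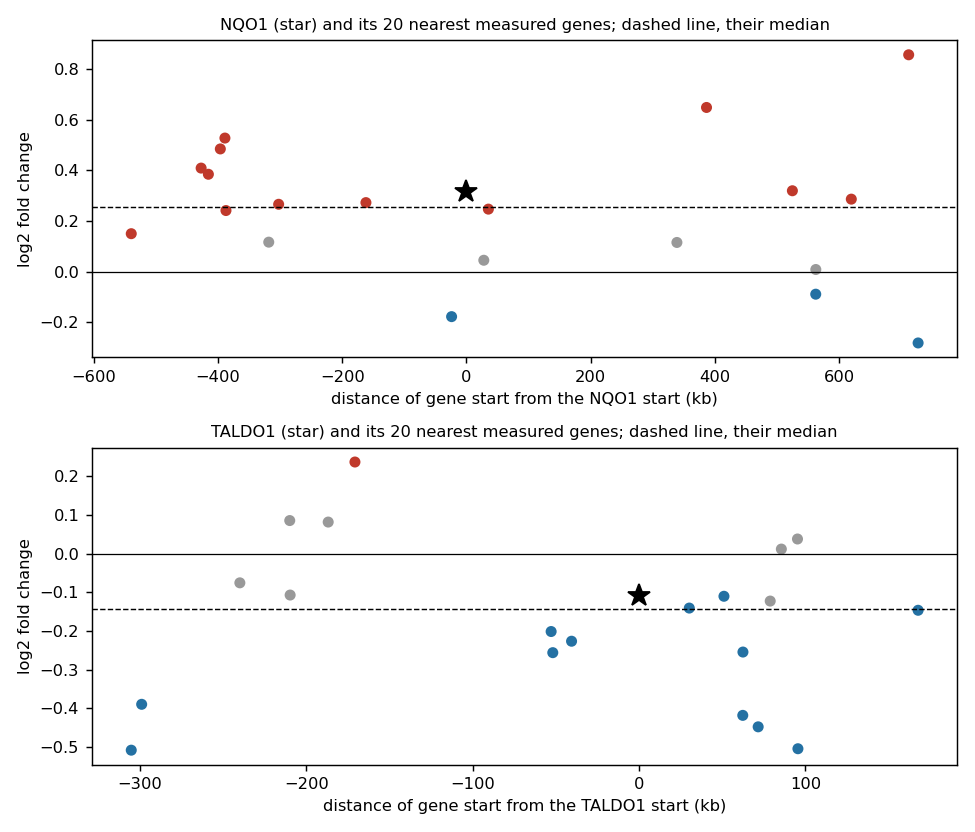
Log2 fold change (ELAPOR1 minus control) of NQO1 and of TALDO1, each drawn as a star at distance 0, and of the 20 nearest tested genes averaging 5 CPM or more, against the distance of their starts in kb along the chromosome. Red points were called higher, blue points lower and grey points neither, and the dashed lines are the medians of the neighbours, 0.26 for NQO1 and -0.14 for TALDO1.

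TXNRD1, the cytosolic selenoenzyme that passes electrons from NADPH to thioredoxin, fell. TXNRD1 (ENSG00000198431.16, chromosome 12, 104215779 to 104350305, plus strand) stood at 1250, 1195, 1190 and 1171 CPM in control and at 999, 981, 1015 and 1026 CPM in ELAPOR1 libraries. The lowest control library lay well above the highest ELAPOR1 library. The mean went from 1201 ± 34.1 to 1005 ± 19.98 CPM (SD, n = 4 per group), a fold of 0.837 and a log2 fold change of -0.26 (standard error 0.027, adjusted p = 1.2e-09 by edgeR). Its neighbours had a median of -0.12, with 8 of 20 lower and 6 higher. The annotated gene overlaps the pseudogene RPL18AP3 and the antisense transcript AC089983.1, which had at most 220 and 77 counts in a library, beside at least 14098 for TXNRD1.

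GSR, the reductase that returns oxidised glutathione to its reduced form with NADPH, and SRXN1, which repairs over-oxidised peroxiredoxins, did not pass the test. GSR (ENSG00000104687.14, chromosome 8, 30678061 to 30727999, minus strand) stood at 49.8, 52.2, 51.8 and 50.9 CPM in control and at 44.4, 52.6, 49.1 and 48.3 CPM in ELAPOR1 libraries. The ELAPOR1 libraries spread around the narrow control range, and the log2 fold change was -0.08 (standard error 0.052, 95% interval -0.18 to 0.030, adjusted p = 0.25 by edgeR). It was -0.033 without ELAPOR1 replicate 1 and -0.11 without ELAPOR1 replicate 2. SRXN1 (ENSG00000271303.1, chromosome 20, 646615 to 653370, minus strand) stood at 68.9, 67.6, 65.3 and 71.5 CPM in control and at 72.6, 72.7, 69.9 and 75.1 CPM in ELAPOR1 libraries. Of the ELAPOR1 libraries, replicate 3 lay within the control range, and the log2 fold change was 0.088 (standard error 0.044, adjusted p = 0.099 by edgeR). SRXN1 passed the threshold with total count scaling (0.11, adjusted p = 0.039) and without control replicate 4 (0.11, adjusted p = 0.043).

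The 2 NADPH-fed reductases were compared within libraries. The log2 ratio of TXNRD1 to GSR was 4.65, 4.52, 4.52 and 4.52 in control and 4.49, 4.22, 4.37 and 4.41 in ELAPOR1 libraries, lower in each ELAPOR1 library than in any control library. The difference was -0.18 (p = 0.0286 in the same two-sided exact test, 0.0381 adjusted), or 23.5 TXNRD1 counts per GSR count in control and 20.7 in ELAPOR1 libraries.

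**Figure D3:**
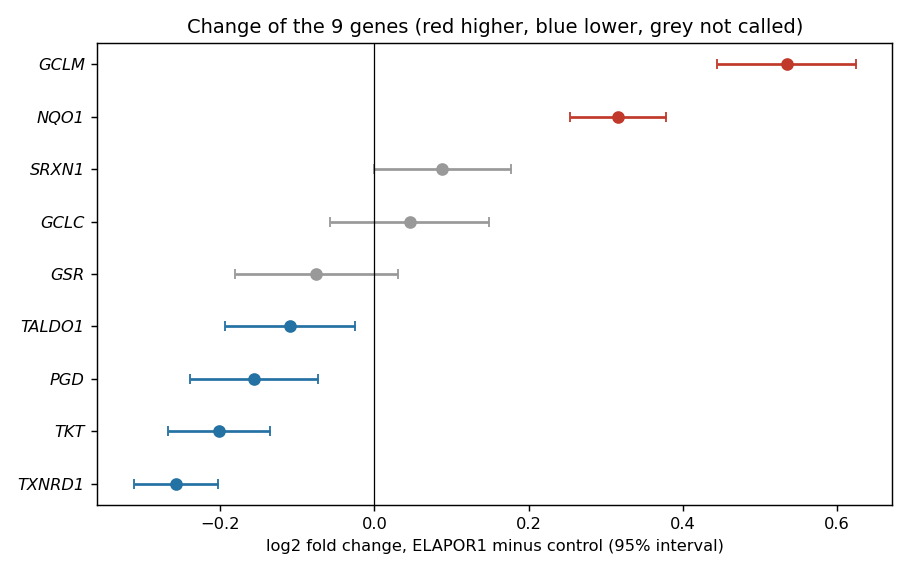
Log2 fold change of the 9 genes, ELAPOR1 minus control, with 95% intervals from the edgeR fit, ordered by size. GCLM (0.53) and NQO1 (0.32) lie to the right of 0, TXNRD1 (-0.26), TKT (-0.20), PGD (-0.16) and TALDO1 (-0.11) to the left, and the intervals of GCLC, SRXN1 and GSR include 0.

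All 3 pentose phosphate enzymes among the 9 genes were called lower in ELAPOR1 libraries. For TALDO1 the groups overlapped, and the call held under only 10 of 20 alternatives. PGD, which releases NADPH as it turns 6-phosphogluconate into ribulose 5-phosphate, stood at 96.0, 94.6, 100.8 and 103.4 CPM in control and at 93.0, 87.2, 85.8 and 87.9 CPM in ELAPOR1 libraries. The highest ELAPOR1 library came close to the lowest control library without reaching it. PGD (ENSG00000142657.21, chromosome 1, 10398592 to 10420144, plus strand) went from 98.7 ± 4.12 to 88.5 ± 3.13 CPM (SD, n = 4 per group), a fold of 0.897 and a log2 fold change of -0.16 (standard error 0.041, adjusted p = 0.0020 by edgeR). Its pseudogene PGDP1 had at most 1 count in a library.

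TKT and TALDO1 are the transferases of the non-oxidative branch, which exchanges carbon units between pentose phosphates and glycolysis. TKT (ENSG00000163931.16, chromosome 3, 53224707 to 53256052, minus strand) stood at 242.1, 255.9, 259.6 and 268.6 CPM in control and at 219.6, 222.3, 227.2 and 223.4 CPM in ELAPOR1 libraries, with no overlap. It went from 257 ± 11.01 to 223 ± 3.14 CPM (SD, n = 4 per group), a fold of 0.870 and a log2 fold change of -0.20 (standard error 0.032, adjusted p = 4.4e-06 by edgeR).

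TALDO1 (ENSG00000177156.11, chromosome 11, 747329 to 765024, plus strand) stood at 117.8, 132.2, 133.0 and 140.3 CPM in control and at 118.8, 122.9, 120.4 and 122.6 CPM in ELAPOR1 libraries. Control replicate 1 lay below all 4 ELAPOR1 libraries, and the other 3 control libraries above them. The log2 fold change was -0.11 (standard error 0.041, adjusted p = 0.030 by edgeR). The call was lost when any 1 of 6 of the 8 libraries was left out, down to -0.074 without control replicate 4 (adjusted p = 0.13), and the change was -0.16 without control replicate 1 (adjusted p = 0.00012). It was also lost with total count scaling (-0.088, adjusted p = 0.080) and after trends against GC content and transcript length were removed (-0.028, adjusted p = 0.52). TALDO1 had the shortest longest transcript of the 9 genes, 1346 bases, and the highest GC content in it, 56.5%. Of its 20 neighbours, spread over 0.473 Mb, 12 fell and 1 rose, with a median of -0.14. The part of these shared shifts in the value of TALDO1 was not tested.

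The log2 ratio of TKT to TALDO1 counts was 1.04, 0.95, 0.96 and 0.94 in control and 0.89, 0.85, 0.92 and 0.87 in ELAPOR1 libraries. The groups did not overlap, and the difference was -0.09 (p = 0.0286 in the same two-sided exact test, 0.0381 adjusted). For PGD against TKT, the oxidative against the non-oxidative branch, the log2 ratio was -1.33, -1.44, -1.36 and -1.38 in control and -1.24, -1.35, -1.40 and -1.35 in ELAPOR1 libraries. These values overlapped, with a difference of 0.043 (p = 0.371 in the two-sided exact test, also 0.371 adjusted). The ratios were not recomputed after trends against GC content and transcript length were removed. In that setting the log2 fold changes were -0.25 for TKT, -0.028 for TALDO1 and -0.13 for PGD, beside -0.20, -0.11 and -0.16 in the main fit.

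**Figure D4:**
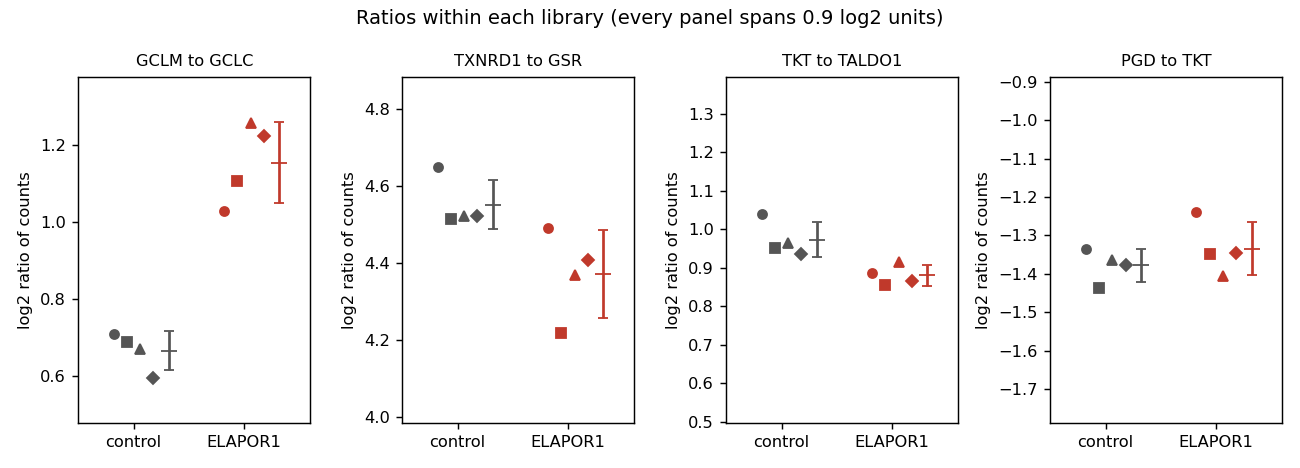
Log2 ratio of the counts of 2 genes within each library, with 1 symbol per library (the symbol shape is the replicate number) and the mean with its SD (n = 4) to the right of each group; all panels span 0.9 log2 units. The groups are apart for GCLM to GCLC, TXNRD1 to GSR and TKT to TALDO1, and overlap for PGD to TKT.

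Levels were also set against each other per length, on 2 scales, since the order depends on the length used. Per kb of all annotated exon sequence of a gene joined (GENCODE 29), the order in control libraries was TXNRD1 (179 ± 5.08 CPM per kb, SD, n = 4), NQO1 (75.6 ± 2.45), TALDO1 (43.5 ± 3.15), PGD (33.3 ± 1.39), TKT (27.0 ± 1.16), SRXN1 (25.3 ± 0.964), GSR (13.6 ± 0.286), GCLM (12.9 ± 0.519) and GCLC (5.10 ± 0.151). The library values overlapped between TKT and SRXN1 and between GSR and GCLM, and not between any other neighbours in that order. Per kb of the longest transcript, TALDO1 (97.2 ± 7.02 CPM per kb) stood above NQO1 (84.5 ± 2.74) with overlapping libraries, the other 7 genes kept their order, and no other neighbours overlapped. TXNRD1 was highest and GCLC lowest on both scales, but the levels of TALDO1 and GCLC themselves differed more than 2-fold between the scales. In ELAPOR1 libraries GCLM stood above GSR with no overlap on both scales, at 18.7 ± 1.10 against 12.9 ± 0.9002 CPM per kb of joined exon and 20.9 ± 1.23 against 15.2 ± 1.06 CPM per kb of longest transcript. SRXN1 (26.9 ± 0.788 CPM per kb of joined exon) stood above TKT (23.5 ± 0.331) on the first scale only, and NQO1 stood above TALDO1 on both.

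The factor that acts on these targets and its partners were then examined as a list of 14 genes, all tested, of which 6 rose and 4 fell (median log2 fold change 0.051). NFE2L2, which encodes NRF2, rose from 134 ± 3.96 to 149.8 ± 5.79 CPM (SD, n = 4 per group), a log2 fold change of 0.16 (standard error 0.036, adjusted p = 4.7e-04 by edgeR), with no overlap between groups. Its annotated gene overlaps AGPS on the opposite strand, with up to 2179 counts, and AC019080.1 on its own strand, with up to 108. The repressor KEAP1 stood at 94.4 ± 1.37 and 93.7 ± 5.68 CPM (log2 fold change -0.011, 95% interval -0.095 to 0.074, edgeR adjusted p = 0.86), and the sign of this value turned with the scaling. The small MAF partners fell, MAFG by 0.34, MAFK by 0.34 and MAFF by 0.22 on the log2 scale (edgeR adjusted p = 2.8e-08, 8.7e-07 and 0.0010). SQSTM1, an autophagy receptor that binds KEAP1, fell by 0.26 (adjusted p = 9.7e-09). The largest changes in the list were those of PALB2, a DNA repair protein that also binds KEAP1, at 0.64 (edgeR adjusted p = 1.3e-09), and of the ubiquitin ligase TRIM21, at 0.36 (adjusted p = 1.0e-04). All 20 of the nearest measured neighbours of PALB2 on chromosome 16 were above 0, and 17 of them rose, with a median of 0.42.

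Among 30 other known NRF2 targets, 22 were tested, of which 6 rose, 6 fell and 10 did not pass (median log2 fold change 0.0063). HMOX1, the inducible heme oxygenase, changed most. It stood at 21.3, 19.4, 17.98 and 18.3 CPM in control and at 9.02, 9.65, 9.36 and 8.999 CPM in ELAPOR1 libraries, and fell by 1.06 on the log2 scale (standard error 0.087, adjusted p = 4.7e-12 by edgeR). It was the gene of this list that passed the test against a 1.5-fold change (adjusted p = 6.4e-05). The cystine importer SLC7A11 fell by 0.52 (adjusted p = 2.2e-09) and the microsomal glutathione transferase MGST1 by 0.47 (adjusted p = 2.7e-14). On the other side, the drug and conjugate exporters ABCC3 and ABCC1 rose by 0.66 and 0.49 (edgeR adjusted p = 6.4e-10 and 3.7e-10), and OSGIN1 rose by 0.46 (adjusted p = 7.3e-05). ABCC1 and OSGIN1 lie on chromosome 16, as do NQO1 and PALB2, and the genes around ABCC1 and OSGIN1 were not examined. The aldo-keto reductases AKR1B10, AKR1C1 and AKR1C2, widely used as NRF2 reporters, had at most 1, 3 and 1 counts in a library, so no change in them was detectable at this depth.

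Of 15 other genes of the pentose phosphate pathway and ribose use, 13 were tested, of which 6 rose and 2 fell (median 0.18). H6PD, which feeds the oxidative branch inside the endoplasmic reticulum, fell by 0.41 (edgeR adjusted p = 3.7e-06), and SHPK, which phosphorylates sedoheptulose and overlaps TRPV1, rose by 0.40 (adjusted p = 3.1e-04). The epimerase RPE rose by 0.22 (adjusted p = 1.3e-05) and PRPS1, which activates ribose 5-phosphate for nucleotide synthesis, by 0.23 (adjusted p = 3.0e-05). TKTL1, a relative of TKT, had at most 3 counts in a library.

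Of 13 other genes that supply NADPH or make NADP, 10 were tested, of which 2 rose and 4 fell (median -0.13). The mitochondrial isocitrate dehydrogenase IDH2 fell by 0.41 (edgeR adjusted p = 1.9e-05), its cytosolic counterpart IDH1 by 0.15 (adjusted p = 0.0012) and the cytosolic malic enzyme ME1 by 0.30 (adjusted p = 3.4e-04). The folate enzyme MTHFD1 rose by 0.20 (adjusted p = 5.3e-07) and its mitochondrial relative MTHFD2 fell by 0.22 (adjusted p = 1.1e-06). NNT, the mitochondrial transhydrogenase, had at most 2 counts in a library.

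In the wider glutathione and thioredoxin system, 33 of 34 genes were tested, of which 7 rose and 14 fell (median -0.097). CHAC1, which degrades glutathione, fell by 0.92 (edgeR adjusted p = 1.2e-07), while CHAC2, which does the same more slowly, rose by 0.78 (adjusted p = 5.2e-09). OPLAH, the 5-oxoprolinase of the glutathione cycle, fell by 0.81 (adjusted p = 2.2e-08). GSS, which completes glutathione after GCLC and GCLM, fell by 0.31 (adjusted p = 5.2e-07), and the peroxiredoxin PRDX5 by 0.66 (adjusted p = 2.5e-16). Thioredoxin itself, TXN, fell by 0.097 (adjusted p = 0.019), with overlapping groups. That call was lost with total count scaling (-0.075, adjusted p = 0.067), when any 1 of 4 of the 8 libraries was left out (control replicate 2 or 3, ELAPOR1 replicate 3 or 4, adjusted p up to 0.070), and once each library's trend with GC and length was taken out (0.0012, adjusted p = 0.98). Its inhibitor TXNIP rose by 0.29 (adjusted p = 1.7e-05). Some genes stand in more than 1 of these lists, among them ME1, TXN, PRDX1 and SLC7A11. The lists held 54.5% to 71.4% called genes, beside 44.7% of all genes.

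**Figure D5:**
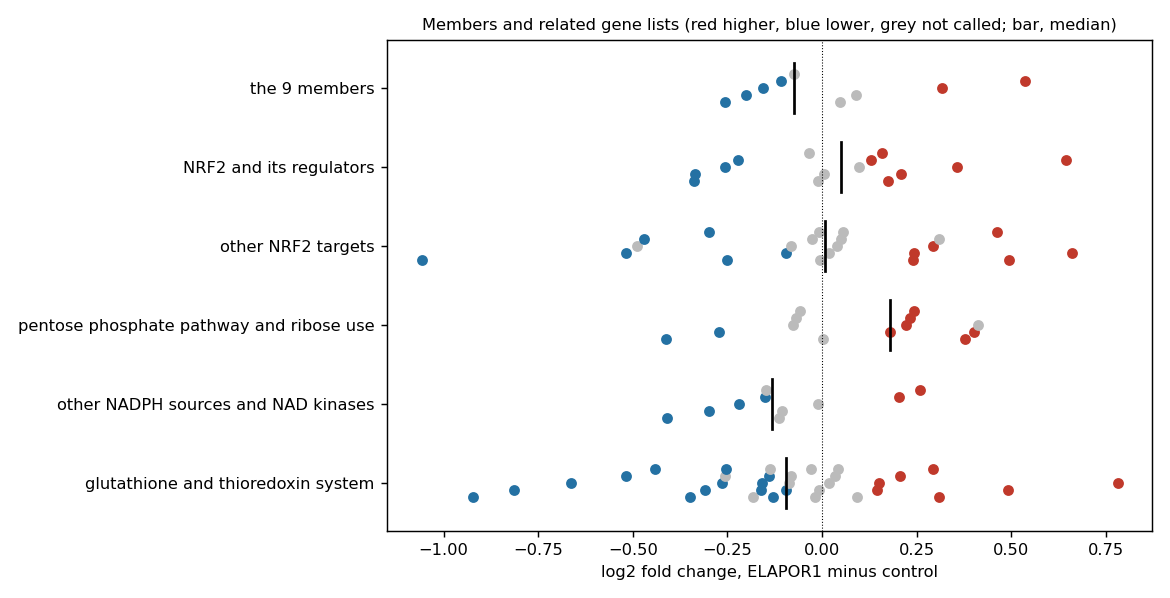
Log2 fold change (ELAPOR1 minus control) of the 9 genes and of the tested genes of 5 related lists, with 1 point per gene (red called higher, blue lower, grey not called) and a bar at the median; the vertical offset within a row has no meaning. Genes called higher and genes called lower stand side by side in every row, and the medians lie between -0.13 and 0.18.

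For 8 of the 9 genes, all but NQO1, the gene most like it over the 8 libraries was named by the Pearson correlation of log2(CPM + 1) among 10702 genes averaging 5 CPM or more. These values are a description, and for genes that differ between groups they rest largely on the group difference that the libraries share. GCLM was most like GPD2 (r = 0.994), the mitochondrial glycerol 3-phosphate dehydrogenase, whose log2 fold change was 0.54. TXNRD1 was most like the amino acid transporter SLC38A2 (r = 0.999), at -0.47. TKT was most like NPEPL1 (r = 0.997), PGD most like TMEM206 (r = 0.979) and TALDO1 most like RNH1 (r = 0.973), which is 1 of its 20 neighbours on chromosome 11. For the 3 genes that were not called, the most alike were ANKRD42 for GCLC (r = 0.985), SENP3 for SRXN1 (r = 0.950) and KLHL2 for GSR (r = 0.972).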

How the data were processed

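The values the authors deposited are expected counts, the estimated number of reads from each gene, unscaled, in 1 table for all 8 libraries; 15.0% of those above 0 were not whole. The submitters' processing notes name cutadapt, STAR, RSEM, DESeq2 and hg38, while versions, annotation release and strand setting are not given in the sources used here. Without strand, reads of a gene and of an overlapping one could not be told apart.

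Counts were rounded and tested over all genes with edgeR 4.0.16 in R 4.3.3 (filterByExpr, TMM, robust glmQLFit and glmQLFTest, two-sided, no covariate), with Benjamini-Hochberg adjustment over 13860 genes and calls at an adjusted p under 0.05. CPM is the count scaled to a TMM-adjusted library total of 1000000. A standard error is the log2 fold change over the square root of F. Ratios used a pseudocount of 0.5 and exact permutation tests. The procedure was tested on simulated data in which 200 genes were changed, fewer than were called here. A shift as wide as the one in these data was not simulated.

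Of the gene IDs, 58597 of 58870 were found in GENCODE 29 (GRCh38), which gave coordinates, overlaps and lengths. PGLS was not analysed here, and some results on single genes are not reported here. Samples were grouped by their condition label. The members and lists were chosen with earlier results of these data known. Besides the 9 genes, NFE2L2, KEAP1 and ELAPOR1, the naming rule took from each list the 2 called genes with the largest change and a mean of at least 5 CPM; other list genes were named after their values were seen. The search of neighbouring genes, its window of 650 kb and the levels per longest transcript were added after the results were seen. Alternatives were other scalings, DESeq2 1.42.0, limma-voom (limma 3.58.1), other filters and thresholds, a replicate block, each library left out, and removal of trends against GC content and length (splines with 5 degrees of freedom). Plots were drawn with matplotlib 3.10.9.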

Additional observations from a re-analysis of the deposited data

Results flagged for a closer look

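Levels of the 9 genes, ELAPOR1, NFE2L2, KEAP1, the list genes taken by the naming rule and the most alike genes were examined, with the ratios and library totals. Other genes named in the text were not examined in this way. Among these 70 groups of 4 libraries, 4 had 1 library far from the other 3, where about 1 in 20, or 3.5, are flagged by chance. NQO1 stood at 297.9 CPM in ELAPOR1 replicate 4 and at 308.9 to 309.3 CPM in the other ELAPOR1 libraries, all above the control libraries. GCLC stood at 42.2 CPM in control replicate 2 and at 44.6 to 45.01 CPM in the other control libraries, and its log2 fold change without that library was 0.025. ANKRD42, the gene most like GCLC, stood at 9.32 CPM in control replicate 2 and at 10.3 to 10.4 CPM in the other control libraries. It was picked for its likeness to GCLC over these same libraries, so its flag is not independent of that of GCLC. The log2 ratio of TXNRD1 to GSR was 4.65 in control replicate 1 and 4.52 in the other control libraries, and the difference between groups was -0.15 without that library.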

How the results depend on the processing

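Calls for NQO1, GCLM, TXNRD1, PGD and TKT kept their direction and their side of the threshold under all 20 alternatives but the one that asked for a change beyond 1.5-fold, where 0 of the 9 genes and 215 of all genes were called. In the related lists that test called 0, 1 (HMOX1), 0, 0 and 0 genes. Leaving out 1 library gave log2 fold changes of 0.51 to 0.56 for GCLM, 0.29 to 0.34 for NQO1, -0.27 to -0.24 for TXNRD1, -0.18 to -0.13 for PGD and -0.23 to -0.18 for TKT, and 5 to 6 of the 9 genes were called. TALDO1 kept its call under 10 of 20 alternatives and TXN under 12, with TXN at 0.0012 once each library's trend with GC and length was taken out, and the cause was not tested. No scaling moved the median of all genes by more than 0.022.

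The ratios could lose their calls by construction, since 3 against 4 libraries allow few arrangements. Without 1 library the difference was 0.45 to 0.53 for GCLM to GCLC, -0.22 to -0.13 for TXNRD1 to GSR and -0.11 to -0.071 for TKT to TALDO1, with adjusted p from 0.0381 to 0.0762. With the replicate block (an exact sign-flip test over 4 pairs, which cannot go below 0.125) these differences were 0.49, -0.18 and -0.093, each with an adjusted p of 0.167.

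Same-numbered libraries of the groups did not deviate together (correlations of -0.11, 0.036, 0.022 and -0.085). These values cannot exclude that such libraries were prepared as pairs, since a weak shared effect might not show in them. With the replicate block in edgeR, 6 of the 9 genes were called, as without it. Genes at a few counts, such as AKR1B10 and NNT, could not be compared at this depth.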
